A study of Homo sapiens with 18 samples.

Results

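The genes described here are 10 genes best known from pluripotent stem cells, POU5F1, NANOG, L1TD1, LIN28A, LIN28B, DPPA4, PRDM14, SALL4, TDGF1 and ZFP42, followed through the endoderm that human stem cells were turned into. They were chosen by symbol from a count table of 34989 named genes. All 10 were in the table, 9 under these symbols and TDGF1 under its newer symbol CRIPTO. The filter on low counts left 8 of the 10 in the tests, with NANOG and PRDM14 below it, out of 15531 genes tested. In untreated endoderm TDGF1, DPPA4, POU5F1, L1TD1 and ZFP42 kept 29%, 22.2%, 15.4%, 12.9% and 7.49% of their mean day 6 level at day 9, SALL4 kept 44.8%, and LIN28A, the most abundant of the 10, kept 75.8%. LIN28B stood at 148% of its day 6 level.

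The data were bulk RNA-seq of foregut endoderm, the embryonic gut tube tissue that gives rise to organs such as lung and liver, made in culture from the wild-type H1 human embryonic stem cell line. All-trans retinoic acid (RA) was given at 2 µM for 24 h between day 5 and day 6, and CHIR99021 (an activator of Wnt signalling) at 2 µM and BMP4, a growth factor, at 50 ng/mL were given together for 72 h between day 6 and day 9, to imitate signals that induce respiratory fate. The 6 groups had 3 libraries each: untreated at day 6, RA at day 6, untreated at day 9, RA at day 9, CHIR99021 with BMP4 at day 9, and RA followed by CHIR99021 with BMP4 at day 9. All 18 libraries came from this 1 cell line, undifferentiated H1 cells were not analysed here, and the labels do not say that the replicates came from separate cultures. The p-values therefore reflect how far these libraries spread, which may be technical.

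Pluripotent cells keep themselves undifferentiated through a small circuit of transcription factors. POU5F1 (OCT4) and SOX2 bind side by side at composite sites near many pluripotency genes, NANOG among them, and NANOG, SALL4 and PRDM14 reinforce the circuit. LIN28A and LIN28B are RNA-binding proteins that block the maturation of let-7 microRNAs, which otherwise repress growth and stem cell genes. In embryos these genes do not all switch off together: LIN28 proteins and SALL4 stay on in many early tissues after POU5F1 and NANOG are gone.

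Levels are given as counts per 1000000 (CPM) after scaling of the libraries, with ± for the standard deviation over 3 libraries, and levels of different genes are compared only in transcripts per 1000000 (TPM), which allow for length. Sums over marker lists and shares of counts between a gene and its copies are not adjusted for length. A gene was called higher or lower where edgeR's quasi-likelihood test gave an adjusted p below 0.05. Totals were 5.79 to 25.37 M counts per library (M, 1000000). Apart from untreated day 6 replicates 1 and 3, the libraries were of 2 kinds, told by a set of 40 genes. Of these 40, 37 were pseudogenes, against 3.65% of all genes with a mean of at least 2 CPM. In the set, 18 genes were at least 10 times higher in every library with RA or CHIR99021 and BMP4. The other 22 were at least 10 times higher in the 4 untreated libraries other than day 6 replicates 1 and 3. The 18 genes held 93.7% to 95.2% of the set's counts in the 12 treated libraries and 0.277% to 0.496% in the 3 untreated day 9 libraries and day 6 replicate 2. This gap was fixed by the choice of the set, which used these libraries. Untreated day 6 replicates 1 and 3, which were not used to choose the set, stood between at 7.92% and 15.8%. None of the 10 genes was in the set. In comparisons of treated with untreated libraries the treatment and this difference in kind cannot be told apart. By this set, the comparisons within 1 kind are day 9 with day 6 after RA and both treatments at day 9 with RA at day 6. So are the addition of CHIR99021 and BMP4 after RA, and RA against no RA before CHIR99021 and BMP4. The near-equal shares of the treated libraries were also fixed by the choice of the set. They cannot show that these libraries are alike in other ways. All pseudogenes together held 1.24% to 1.47% of counts after RA at day 9 and 1.599% to 1.629% after RA at day 6. Pseudogenes held 2.17% to 2.24% with both treatments and at least 2.54% with CHIR99021 and BMP4. The part of this difference in the results was not tested. Untreated day 6 replicate 3 was the lowest of its group for 8 of the 10 genes, so the tests of the 10 genes and of the listed genes named below that rest on that group were repeated without replicates 1 and 3. The lone library left in that group is then assumed to vary like the other groups.

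The label of foregut endoderm was checked against 7 endoderm markers (FOXA1, FOXA2, SOX17, GATA4, GATA6, CXCR4 and HHEX). None was at 0 in any group, and their summed level was 566 to 592 CPM in untreated day 6 libraries, 1045 to 1137 CPM after RA at day 6, 252 to 277 CPM untreated at day 9, 844 to 963 CPM after RA at day 9, 153 to 212 CPM with CHIR99021 and BMP4, and 569.9 to 583 CPM with both in turn. Gene by gene, 6 of the 7 were called lower and 0 higher between the untreated days, where 22.9% of all genes were called lower. Between the days after RA, 5 were lower and 1 higher, against 30.3% lower over all genes. From untreated day 6 to CHIR99021 with BMP4, 6 were lower and 0 higher, against 27.4% lower. From RA at day 6 to both treatments all 7 were lower, against 26.7%. Markers of cardiac mesoderm summed to 1101 to 1577 CPM at day 9 after RA, against 8.03 to 69 CPM in the other 5 groups. In bulk samples fewer cells that express a gene and less RNA per cell cannot be told apart, which applies to every level below.

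Per transcript length, the 10 genes differed widely in level. At day 6 without treatment LIN28A stood at 2173 ± 117 TPM, SALL4 at 279 ± 10.6 TPM and LIN28B at 63.9 ± 3.63 TPM. L1TD1 (42.9 ± 8.98 TPM), DPPA4 (24.6 ± 1.28 TPM), TDGF1 (19.8 ± 9.84 TPM) and ZFP42 (15.2 ± 3.35 TPM) were in the middle. POU5F1 at 2.56 ± 1.14 TPM, NANOG at 0.818 ± 0.277 TPM and PRDM14 at 0.258 ± 0.0404 TPM were the lowest. LIN28A alone made up 77.0% to 87.4% of the 10 genes' summed TPM in the 6 groups, and POU5F1, NANOG and PRDM14 each had a mean of 0.435 TPM or less in every day 9 group.

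**Figure D1:**
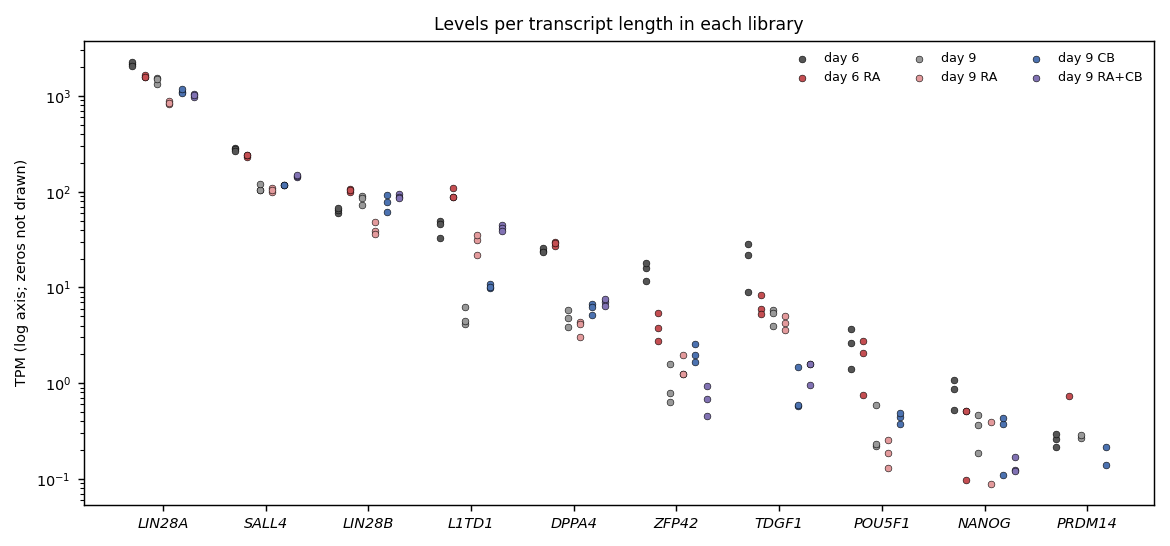
TPM of the 10 genes (columns) in each of the 18 libraries (points, coloured by group) on a log axis; values of 0 are not drawn. CB is CHIR99021 with BMP4. LIN28A lies above all other genes in every group, and POU5F1, NANOG and PRDM14 lie at the bottom.

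Passing from day 6 to day 9 lowered most of the genes. Without treatment all 8 tested genes were called, 7 lower and only LIN28B higher, where 46.9% of all tested genes were called and 22.9% were called lower. After RA, 7 of 8 were called between day 6 and day 9 and all 7 were lower, TDGF1 being the exception, against 58.8% called and 30.3% called lower over all genes. From untreated day 6 to day 9 with CHIR99021 and BMP4, 7 of 8 were called, all lower, against 55.6% called and 27.4% lower over all genes. From day 6 with RA to day 9 with RA, CHIR99021 and BMP4, again 7 of 8 were called lower, against 51.8% and 26.7%. LIN28B was the gene not called in both of these. The median log2 fold change of the 8 genes was -1.90, -1.30, -2.09 and -1.56 in these 4 comparisons, and that of all tested genes was 0.00, -0.03, 0.01 and 0.00. These comparisons share their day 6 libraries in pairs.

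The treatments split the genes. RA at day 6 left 2 of 8 higher (L1TD1 and LIN28B) and 4 lower (TDGF1, ZFP42, LIN28A and SALL4), where 48.7% of all genes were called. RA at day 9 left L1TD1 higher and 4 lower (LIN28B, LIN28A, DPPA4 and SALL4), where 65.1% of all genes were called. CHIR99021 with BMP4 without RA left L1TD1 higher and 3 lower (TDGF1, LIN28A and LIN28B), against 42.8% called over all genes. After RA, the same addition was followed by a call for all 8, with 5 higher (LIN28B, DPPA4, SALL4, L1TD1 and LIN28A) and 3 lower (POU5F1, TDGF1 and ZFP42), against 64.4%. RA before CHIR99021 and BMP4 left 2 higher (L1TD1 and SALL4) and 3 lower (POU5F1, ZFP42 and LIN28A), against 43.3%. For RA at day 9 and for CHIR99021 with BMP4 without RA the counts, 5 and 4 of 8, were near the share over all genes. The counts over 8 genes are not read as a result about a set, and the results are described gene by gene.

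Without untreated day 6 replicates 1 and 3, RA at day 6 still had L1TD1 higher (0.77, adjusted p = 0.00238) and SALL4 (-0.52, adjusted p = 9.12e-05) and LIN28A (-0.78, adjusted p = 1.72e-06) lower. POU5F1 (-0.72, adjusted p = 0.326) and DPPA4 (-0.12, adjusted p = 0.644) were again not called, DPPA4 with a value of the other sign. All 8 calls between untreated day 6 and day 9 stayed, from -3.78, adjusted p = 5.12e-08 for ZFP42 to 0.49, adjusted p = 0.0349 for LIN28B. The 7 calls from untreated day 6 to day 9 with CHIR99021 and BMP4 stayed too, from -4.73, adjusted p = 7.90e-10 for TDGF1 to -1.15, adjusted p = 3.63e-09 for LIN28A.

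Whether the response to RA differed with the setting was tested as an interaction, and both counts were close to the share over all genes. The interaction of RA with CHIR99021 and BMP4 was called for 5 of 8 genes, 4 higher (LIN28B, LIN28A, DPPA4 and SALL4) and 1 lower (ZFP42), against 53.4% called over all genes. The interaction of RA with day was called for 5 of 8, 2 higher (ZFP42 and L1TD1) and 3 lower (LIN28B, DPPA4 and LIN28A), against 50.9%.

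**Figure D2:**
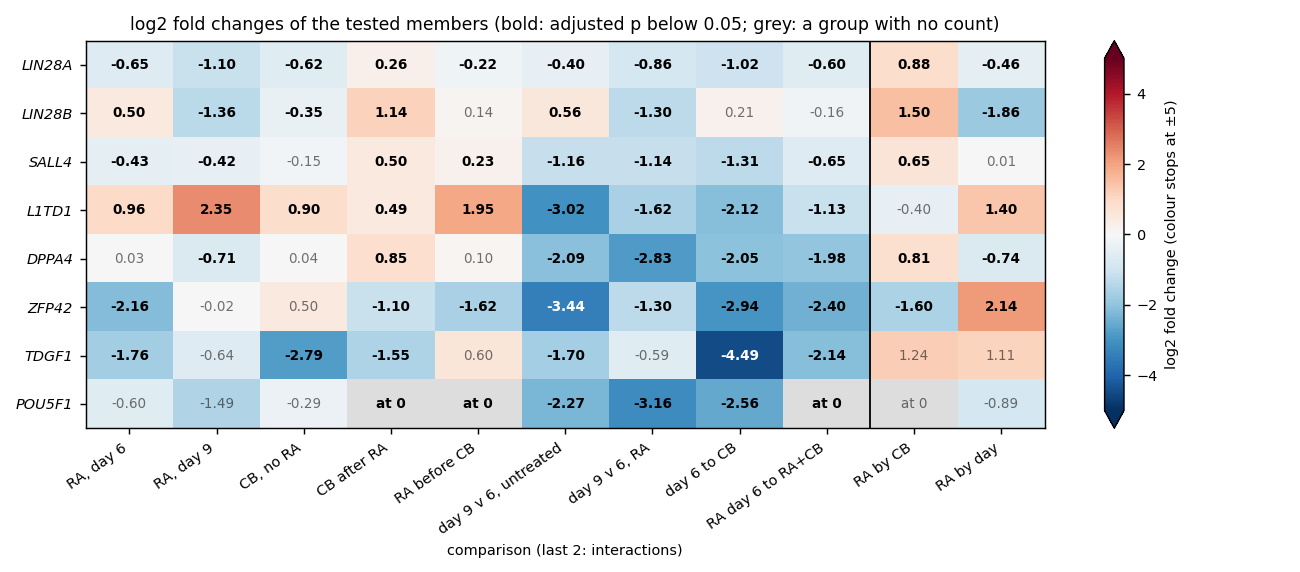
Fitted log2 fold changes of the 8 tested genes (rows) in 9 comparisons and 2 interactions (columns); bold values had an adjusted p below 0.05, and grey cells marked "at 0" compare with a group where POU5F1 had no count. CB is CHIR99021 with BMP4. Columns for day 9 against day 6 are blue for nearly all genes, while L1TD1 is positive in all 5 treatment columns.

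POU5F1, the POU-domain transcription factor OCT4 at the centre of the pluripotency circuit (chr6:31164337-31167170, GRCh38, as for all gene positions here), was close to the limit of these libraries. It stood at 4.96, 3.66 and 1.82 CPM in the untreated day 6 libraries and at 0.883, 3.27 and 2.41 CPM after RA at day 6. At day 9 it was at 0.924, 0.340 and 0.346 CPM untreated, 0.160, 0.313 and 0.222 CPM after RA and 0.507, 0.554 and 0.622 CPM with CHIR99021 and BMP4. The day 6 groups overlapped each other and lay above all day 9 groups except for 1 library: RA at day 6 replicate 1 (0.883 CPM) was below untreated day 9 replicate 1 (0.924 CPM). POU5F1 had 0 counts in all 3 libraries with RA, CHIR99021 and BMP4, where 3 counts over the group would be 0.0787 CPM.

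The fall of POU5F1 between the days was 4.82-fold without treatment (log2 fold change -2.27, SE 0.46, adjusted p = 4.23e-04) and 8.92-fold after RA (log2 fold change -3.16, SE 0.64, adjusted p = 2.24e-04). With the empty group set to 3 counts, POU5F1 was 7.13-fold lower with RA before CHIR99021 and BMP4 than without RA (adjusted p = 0.0015). On the same footing it was 2.95-fold lower than with RA alone (adjusted p = 0.0248). These folds take the mean of the other group without its error. The upper ends of the 95% intervals of the 2 fitted log2 changes were -2.91 and -0.98. The comparison with RA alone rested on 6 counts in the 3 RA libraries, and leaving out RA at day 9 replicate 2 or RA with CHIR99021 and BMP4 replicate 1 ended the call (adjusted p = 0.0709 and 0.0875). RA alone gave no call at day 6 (log2 fold change -0.60, SE 0.39, adjusted p = 0.219) or at day 9 (log2 fold change -1.49, SE 0.77, adjusted p = 0.0942), and the 95% interval at day 6 ran from -1.41 to 0.21 in log2.

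POU5F1 has near-identical copies that reads can be assigned to, so its own count is uncertain. Its expressed copy POU5F1B was at 2.42 ± 0.617 TPM in untreated day 6 libraries, about the level of POU5F1 itself (2.56 ± 1.14 TPM). At day 9 the mean of POU5F1B was above that of POU5F1 in every group, with 1.38 ± 0.458 against 0.348 ± 0.211 TPM untreated and 0.932 ± 0.409 against 0.190 ± 0.0626 TPM after RA. It was at 1.45 ± 0.174 against 0.435 ± 0.0608 TPM with CHIR99021 and BMP4, and at 0.490 ± 0.261 TPM with both in turn, where POU5F1 had 0 counts. The copies POU5F1B, POU5F1P3, POU5F1P4 and POU5F1P6 together held 65.5% of the counts of POU5F1 and its copies in untreated day 6 libraries, 58.6% after RA at day 6 and 81.6% to 100% in the 4 day 9 groups. Summed with its copies, POU5F1 was called lower under RA at day 6 (-0.87, adjusted p = 0.0223) and at day 9 (-1.13, adjusted p = 0.0176), and the call for CHIR99021 and BMP4 after RA was lost (-1.0, adjusted p = 0.0866). The fall between the days stayed called for the sum, at -1.42, adjusted p = 9.64e-04 without treatment and -1.68, adjusted p = 8.32e-04 after RA.

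NANOG, the homeobox factor of the circuit (chr12:7789402-7796061), had 24 counts over the 3 untreated day 6 libraries, at 0.670, 1.43 and 1.07 CPM. In the other 15 libraries it did not exceed 0.681 CPM, and it had 0 to 10 counts in each. The highest untreated day 9 library overlapped the lowest untreated day 6 one. When the low-count filter was lifted, NANOG was lower with CHIR99021 and BMP4 at day 9 than in untreated day 6 (log2 fold change -1.44, SE 0.56, adjusted p = 0.0325; without untreated day 6 replicates 1 and 3, -1.91, adjusted p = 0.0594, not called), and untreated day 9 against day 6 was not called (log2 fold change -1.34, SE 0.58, adjusted p = 0.0710). NANOGP8, a processed copy, held 42.9% of the counts of the pair in untreated day 6 libraries. PRDM14, a PR-domain protein that restrains differentiation signals in stem cells, had 15 counts in all 18 libraries together. It had 1 count in each untreated day 6 library, 0, 4 and 0 after RA at day 6, and 0 in all 6 libraries of the 2 day 9 groups that had received RA, and differences at this depth were not detectable.

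The NANOG promoter is printed because it carries the textbook composite site at which POU5F1 and SOX2 bind together. RefSeq windows of 300 bases (GRCh38.p14, 250 before and 50 after the start) were found for 6 of the 10 genes: NANOG, L1TD1, LIN28B, DPPA4, TDGF1 and ZFP42. The LIN28B window (chr6:104940715-104941014) ends before the counted LIN28B gene begins (chr6:104957107), so it belongs to a start outside it. Letter patterns were searched on both strands. In NANOG (chr12:7789152-7789451, plus strand) the octamer core ATGCAAA on the minus strand, 120 bases before the start, stood next to the SOX site ACAATG on the plus strand, 112 bases before the start, and both are in capitals.
NANOG: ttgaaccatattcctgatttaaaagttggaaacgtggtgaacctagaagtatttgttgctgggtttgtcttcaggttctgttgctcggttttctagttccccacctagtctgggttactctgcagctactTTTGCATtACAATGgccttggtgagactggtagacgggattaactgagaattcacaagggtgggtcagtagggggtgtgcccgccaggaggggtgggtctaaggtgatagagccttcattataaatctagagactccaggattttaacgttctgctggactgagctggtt
Over 35116 RefSeq promoters, 4.46% held ATGCAAA and 10.8% held ACAATG. NANOG alone of the 6 genes had the octamer core. SOX2, the partner factor, was at 194 ± 47.5 TPM in untreated day 6 libraries, where POU5F1 was at 2.56 ± 1.14 TPM. These matches are letters in a window and do not show binding.

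SALL4, a zinc finger factor that works with POU5F1 and NANOG in stem cells and stays on in several early tissues (chr20:51782331-51802521), was the second most abundant of the genes. Its libraries were at 499, 511 and 447 CPM in untreated day 6, 351, 368 and 360.4 CPM after RA at day 6, 212, 208 and 232 CPM in untreated day 9 and 156, 173 and 159 CPM after RA at day 9. With CHIR99021 and BMP4 it was at 208, 188 and 189.8 CPM, and with both treatments in turn at 226, 233 and 229 CPM. The order of the groups was untreated day 6, RA at day 6, both treatments, untreated day 9, CHIR99021 with BMP4, and RA at day 9, and only both treatments and untreated day 9 overlapped as neighbours. SALL4 fell 2.23-fold between the days without treatment (log2 fold change -1.16, SE 0.07, adjusted p = 5.68e-12) and 2.21-fold after RA (log2 fold change -1.14, SE 0.07, adjusted p = 1.77e-12). RA left it lower by a similar amount at both days, 1.35-fold at day 6 (log2 fold change -0.43, SE 0.07, adjusted p = 1.38e-05) and 1.33-fold at day 9 (log2 fold change -0.42, SE 0.07, adjusted p = 1.63e-05), and the interaction of RA with day was 0.01, adjusted p = 0.913, with a 95% interval from -0.19 to 0.22. Adding CHIR99021 and BMP4 after RA raised it 1.41-fold (log2 fold change 0.50, SE 0.07, adjusted p = 1.30e-06). This comparison was within 1 library kind by the chosen set only, and the groups differed in their share of pseudogene counts. The day 9 difference with RA was not called on the log2 TPM scale (-0.09, adjusted p = 0.242), a scale on which the median of all genes moved by 0.33 in that comparison.

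SALL4 has 3 paralogs, SALL1, SALL2 and SALL3, that were also tested. SALL1 was at 573 ± 44.7 CPM in untreated day 6, 156 ± 18.6 CPM after RA at day 6, 179 ± 25.3 CPM in untreated day 9 and 47.3 ± 9.86 CPM after RA at day 9. Its change with RA at day 6 was -1.88, adjusted p = 4.66e-10, against -0.43 for SALL4. With CHIR99021 and BMP4, SALL1 was at 207 ± 23.4 CPM without RA and 44.2 ± 1.06 CPM after it. All 3 paralogs were called lower at day 9 than at day 6 without treatment and after RA, where 22.9% and 30.3% of all genes were called lower. From untreated day 6 to day 9 with CHIR99021 and BMP4, 2 of the 3 were called lower, against 27.4% of all genes. From RA at day 6 to both treatments at day 9, 2 of the 3 were again called lower, against 26.7%.

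DPPA4, a chromatin-bound protein with a SAP domain that marks pluripotent and early germ cells (chr3:109326141-109337572), separated the 2 days without overlap. SALL4 did so too, with 351 CPM in its lowest day 6 library and 233 CPM in its highest day 9 one. The 6 day 6 libraries of DPPA4 were at 45.7, 51.6 and 43.4 CPM untreated and 45.6, 49.7 and 48.3 CPM with RA, and these groups overlapped. The 12 day 9 libraries were at 12.7, 10.4 and 8.12 CPM untreated, 5.29, 7.52 and 7 CPM after RA, 13.1, 9.09 and 11.2 CPM with CHIR99021 and BMP4, and 12, 13.4 and 10.8 CPM with both. The lowest day 6 library (43.4 CPM) was far above the highest day 9 one (13.4 CPM). The fall was 4.26-fold without treatment (log2 fold change -2.09, SE 0.14, adjusted p = 4.20e-11) and 7.11-fold after RA (log2 fold change -2.83, SE 0.15, adjusted p = 2.06e-13). RA at day 6 did not give a call (log2 fold change 0.03, SE 0.12, adjusted p = 0.84), with a 95% interval of the log2 change from -0.22 to 0.29. At day 9 DPPA4 was 1.63-fold lower after RA (log2 fold change -0.71, SE 0.17, adjusted p = 9.94e-04), and 1.8-fold higher when CHIR99021 and BMP4 followed RA than with RA alone (log2 fold change 0.85, SE 0.17, adjusted p = 1.17e-04). On the log2(TPM + 0.1) scale the RA difference at day 9 was -0.31 and not called (adjusted p = 0.0797).

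ZFP42 (REX1), a zinc finger protein used as a marker of the pluripotent state (chr4:187995771-188005046), was high in untreated day 6 endoderm alone. The summed neurectoderm and mesendoderm markers given further on were also higher there than after RA at day 6. Its libraries there were at 22.1, 26.4 and 15.6 CPM, and at 3.42, 4.58 and 6.51 CPM after RA at day 6. At day 9 it was at 2.57, 1.02 and 1.21 CPM untreated, 1.6, 2.51 and 1.56 CPM after RA, 3.62, 2.55 and 2.18 CPM with CHIR99021 and BMP4, and 0.861, 1.21 and 0.551 CPM with both. No untreated day 6 library overlapped any library of another group, while the 4 later steps in the order of the groups (RA at day 6, CHIR99021 with BMP4, RA at day 9, untreated day 9 and both treatments) each overlapped with the next. ZFP42 fell 10.8-fold between the days without treatment (log2 fold change -3.44, SE 0.29, adjusted p = 3.44e-09) and 2.46-fold after RA (log2 fold change -1.30, SE 0.35, adjusted p = 0.00268). ZFP42 was 4.45-fold lower with RA than without at day 6 (log2 fold change -2.16, SE 0.26, adjusted p = 4.90e-07). At day 9 this difference was not called (log2 fold change -0.02, SE 0.38, adjusted p = 0.973). In both comparisons RA and library kind cannot be told apart. Without untreated day 6 replicates 1 and 3 the day 6 value was -2.49, adjusted p = 3.62e-06. RA before CHIR99021 and BMP4 left ZFP42 3.07-fold lower than no RA (log2 fold change -1.62, SE 0.38, adjusted p = 0.00147). The lower level with both treatments than with RA alone (log2 fold change -1.10, SE 0.44, adjusted p = 0.0319) lost its call when RA at day 9 replicate 2, or replicate 1 or 3 of both treatments, was left out (adjusted p = 0.186, 0.103 and 0.0805).

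LIN28A (chr1:26410817-26429728), the form of LIN28 that is abundant in stem cells, remained among these genes the one with the highest level at every stage. Its libraries were at 2904, 3149.8 and 2616 CPM in untreated day 6, 2037, 2329 and 2202 CPM in untreated day 9 and 1838, 1897 and 1807 CPM after RA at day 6. They were at 1469.5, 1318 and 1489.8 CPM with CHIR99021 and BMP4, 1172, 1296 and 1199.6 CPM with both treatments and 995, 1067 and 991 CPM after RA at day 9. No neighbouring groups in this order overlapped. Untreated day 9 endoderm kept 75.8% of the day 6 level (log2 fold change -0.40, SE 0.08, adjusted p = 1.89e-04), and endoderm with RA kept 55.1% (log2 fold change -0.86, SE 0.08, adjusted p = 1.87e-09). RA left LIN28A 1.56-fold lower at day 6 (log2 fold change -0.65, SE 0.08, adjusted p = 3.18e-07) and 2.15-fold lower at day 9 (log2 fold change -1.10, SE 0.08, adjusted p = 2.55e-11). CHIR99021 with BMP4 went with a lower level without RA (log2 fold change -0.62, SE 0.08, adjusted p = 8.05e-07) and a higher one after RA (log2 fold change 0.26, SE 0.08, adjusted p = 0.00489). The small difference of RA before CHIR99021 and BMP4 (-0.22, adjusted p = 0.0235) was not called when 1 of 4 libraries was left out or on the TPM scale (adjusted p = 0.0737 to 0.167).

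LIN28B (chr6:104957107-105083332), the paralog with the same 2 RNA-binding domains, followed another order. It was at 134, 163 and 149.8 CPM in untreated day 9, 138, 148 and 140.3 CPM after RA at day 6, 134, 129 and 119 CPM with both treatments, 98, 135 and 116 CPM with CHIR99021 and BMP4, 95, 105 and 103 CPM in untreated day 6, and 69.1, 55.1 and 50.4 CPM after RA at day 9. RA at day 9 stood apart as the lowest group, and 3 of the 5 neighbouring pairs overlapped. LIN28B was the only tested gene of the 10 that was called higher at day 9 than at day 6 without treatment (log2 fold change 0.56, SE 0.11, adjusted p = 2.17e-04), while after RA it fell 2.46-fold (log2 fold change -1.30, SE 0.11, adjusted p = 1.70e-09). RA left it 1.41-fold higher at day 6 (log2 fold change 0.50, SE 0.11, adjusted p = 5.93e-04) and 2.57-fold lower at day 9 (log2 fold change -1.36, SE 0.11, adjusted p = 7.48e-10). Without untreated day 6 replicates 1 and 3 the day 6 difference was 0.43, adjusted p = 0.0542, no longer called. Adding CHIR99021 and BMP4 after RA raised LIN28B 2.21-fold (log2 fold change 1.14, SE 0.11, adjusted p = 9.72e-09), to a level not called different from that without RA (log2 fold change 0.14, SE 0.10, adjusted p = 0.307). Its antisense neighbour LIN28B-AS1 rose in the same comparison (2.42, adjusted p = 0.00115) from 0.269 ± 0.193 to 1.32 ± 0.326 CPM; reads of the 2 genes cannot be separated with certainty, since no source used here gives the strand setting of the counting. In TPM, LIN28A exceeded LIN28B 34-fold in untreated day 6 and 11.4-fold with both treatments.

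**Figure D3:**
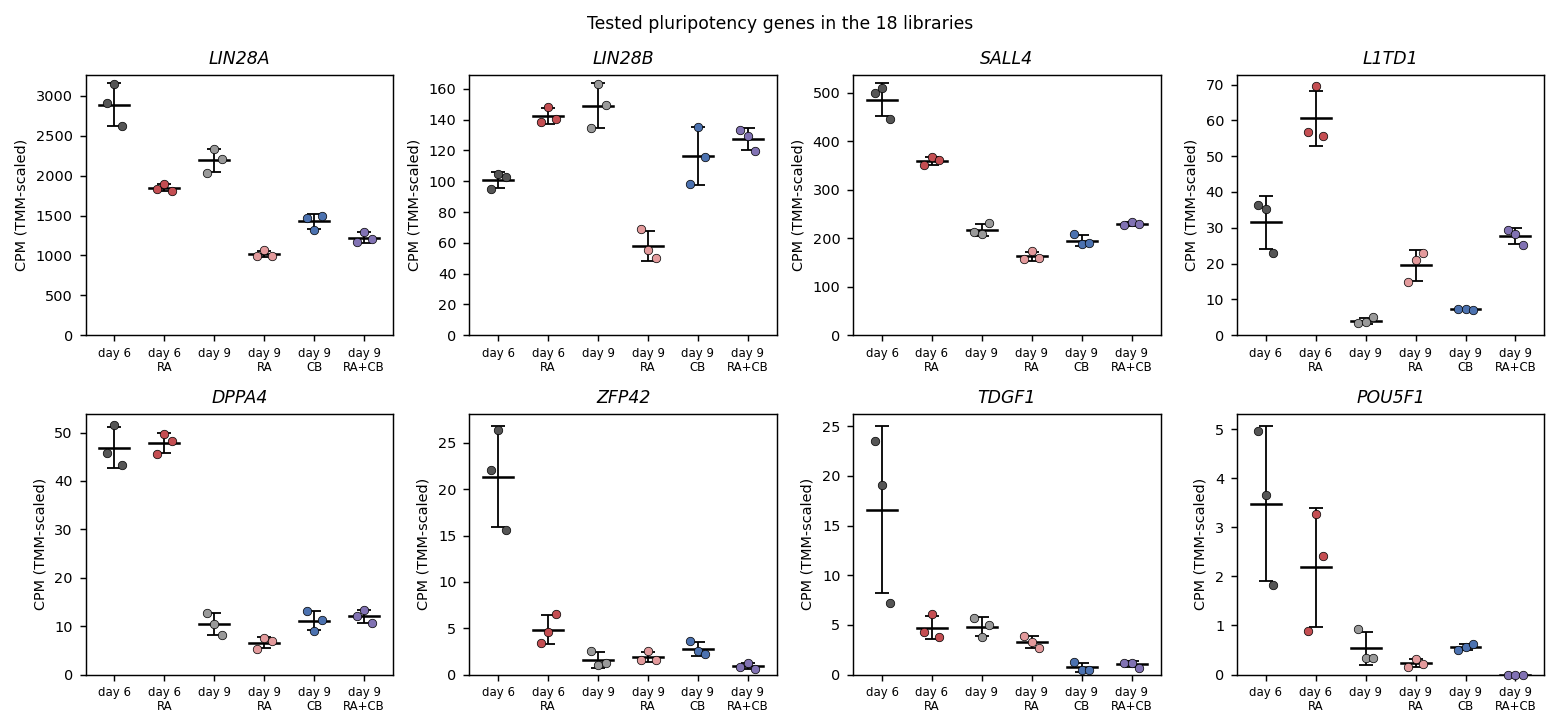
CPM of the 8 tested genes in each library (points), with the mean (long bar) and SD (error bar) of the 3 libraries of a group; each panel has its own linear axis from 0. CB is CHIR99021 with BMP4. DPPA4 and SALL4 separate the 2 days without overlap, ZFP42 is high in untreated day 6 alone, and LIN28B is lowest after RA at day 9.

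The targets of LIN28 are shown here as the RNA that both proteins bind. The let-7 hairpins and mature forms below are RefSeq sequences (GRCh38.p14), and mRNA libraries do not measure them. Capitals mark the seed, bases 2 to 8, which pairs with target mRNAs, in the mature form, and the GGAG motif that the LIN28 zinc knuckles recognise in the hairpin of let-7g.
let-7a-5p: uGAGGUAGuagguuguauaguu
let-7g-5p: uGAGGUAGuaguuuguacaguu
let-7g hairpin: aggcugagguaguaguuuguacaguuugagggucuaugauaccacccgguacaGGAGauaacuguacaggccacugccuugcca
Both mature forms share the seed GAGGUAG. Of 12 genes listed for the LIN28 and let-7 axis (known let-7 targets and enzymes that act on let-7 precursors), all 12 were tested. RA at day 6 left 5 higher and 3 lower, with 48.7% of all genes called, and 3 higher and 3 lower without untreated day 6 replicates 1 and 3. RA at day 9 left 1 higher and 8 lower, with 65.1% of all genes called. CHIR99021 with BMP4 left 0 higher and 7 lower without RA (edgeR; 42.8% of all genes called), and 4 higher and 4 lower after RA (64.4% of all genes called). The median log2 fold change of the 12 was 0.17, -0.32, -0.30 and 0.02 in these 4 comparisons.

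HMGA2, a chromatin protein and a classic let-7 target, was at 173 ± 10.4 CPM in untreated day 6 and 766 ± 103 CPM in untreated day 9 (log2 fold change 2.14, SE 0.10, adjusted p = 4.53e-13). Like LIN28B, it was higher with RA at day 6 (0.69, adjusted p = 6.45e-06) and lower with RA at day 9 (-0.91, adjusted p = 4.07e-08). After RA, CHIR99021 with BMP4 raised HMGA2 from 407 ± 13.2 to 616 ± 61.7 CPM (0.60, adjusted p = 1.41e-05). PRTG, a cell surface receptor of the early embryo, had its lowest level after RA at day 9 (539 ± 36.3 CPM) and was higher with both treatments (1464 ± 40.7 CPM, 1.44, adjusted p = 1.48e-13). IGF2BP1, an mRNA-binding protein repressed by let-7, changed little, from 1031 ± 24.6 CPM in untreated day 9 to 794 ± 40.1 CPM after RA (-0.38, adjusted p = 1.30e-05). NR6A1 (GCNF), an orphan nuclear receptor that represses POU5F1 during differentiation, fell from 408 ± 31.6 to 207 ± 7.73 CPM without treatment (-0.98, adjusted p = 5.38e-10) and from 487 ± 26.8 to 172 ± 13.9 CPM after RA (-1.50, adjusted p = 9.90e-14). ARID3B, a DNA-binding protein and let-7 target, was at 428 ± 27.1 CPM in untreated day 6 and 81.2 ± 1.62 CPM with RA (-2.40, adjusted p = 7.01e-17).

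L1TD1, an RNA-binding protein derived from a LINE-1 element that associates with LIN28A in human stem cells (chr1:62194849-62212328), was higher after every treatment. Its libraries were at 56.8, 69.5 and 55.5 CPM after RA at day 6, 36.3, 35.3 and 23.1 CPM in untreated day 6 and 29.4, 28.3 and 25.1 CPM with both treatments. They were at 14.8, 20.9 and 22.9 CPM after RA at day 9, 7.31, 7.32 and 6.99 CPM with CHIR99021 and BMP4, and 3.5, 3.74 and 5.01 CPM in untreated day 9. Of the neighbours in this order only untreated day 6 and both treatments overlapped. L1TD1 fell 8.09-fold between the days without treatment (log2 fold change -3.02, SE 0.20, adjusted p = 1.63e-10) and 3.07-fold after RA (log2 fold change -1.62, SE 0.15, adjusted p = 1.11e-08), and with both treatments it kept 45.5% of the RA day 6 level. RA left it 1.94-fold higher at day 6 (log2 fold change 0.96, SE 0.15, adjusted p = 1.78e-05) and 5.11-fold higher at day 9 (log2 fold change 2.35, SE 0.21, adjusted p = 3.20e-09). Within the treated libraries, RA before CHIR99021 and BMP4 left L1TD1 3.87-fold higher (log2 fold change 1.95, SE 0.17, adjusted p = 7.72e-09). L1TD1 was higher with CHIR99021 and BMP4, 1.86-fold without RA (log2 fold change 0.90, SE 0.22, adjusted p = 0.00268) and 1.41-fold after RA (log2 fold change 0.49, SE 0.16, adjusted p = 0.0104). The first lost its call without untreated day 9 replicate 1 (0.71, adjusted p = 0.0724) and the second without RA at day 9 replicate 1 (0.35, adjusted p = 0.0599).

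TDGF1 (CRIPTO), the cell surface co-receptor that Nodal needs to signal through activin receptors (chr3:46574535-46582457), was high in untreated day 6 and lowest with CHIR99021 and BMP4. Its libraries were at 23.5, 19.1 and 7.19 CPM in untreated day 6, with replicate 3 the lowest, and 4.3, 6.05 and 3.82 CPM after RA at day 6. At day 9 they were at 5.67, 3.74 and 5.01 CPM untreated, 3.85, 3.24 and 2.67 CPM after RA, 1.23, 0.443 and 0.466 CPM with CHIR99021 and BMP4, and 1.2, 1.21 and 0.689 CPM with both. The groups with CHIR99021 and BMP4 overlapped each other and lay below all other libraries. RA left TDGF1 3.38-fold lower at day 6 (log2 fold change -1.76, SE 0.34, adjusted p = 3.33e-04). Without untreated day 6 replicates 1 and 3 this was -2.00, adjusted p = 2.82e-05. CHIR99021 with BMP4 left it 6.9-fold lower without RA (log2 fold change -2.79, SE 0.47, adjusted p = 9.82e-05) and 2.92-fold lower after RA (log2 fold change -1.55, SE 0.49, adjusted p = 0.0105). The comparison after RA was within 1 library kind by the chosen set only, and its groups differed in their share of pseudogene counts. From untreated day 6 to day 9 with CHIR99021 and BMP4 the fall was 22.5-fold, and 4.3% of the day 6 level was kept.

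TDGF1 also has a processed copy, CRIPTO3, that shares its sequence, so its counts are uncertain too. CRIPTO3 was at 9.34 ± 4.1 CPM in untreated day 6 and 1.05 ± 0.127 CPM after RA at day 6. It was at 2.98 ± 0.489 CPM in untreated day 9 and 1.16 ± 0.244 CPM after RA at day 9. In TPM, CRIPTO3 was at 22.8 ± 9.54 beside 19.8 ± 9.84 for TDGF1 in untreated day 6 and at 6.45 ± 0.931 beside 5.09 ± 1.01 in untreated day 9, while its mean was below that of TDGF1 in the 4 treated groups. CRIPTO3 held 36.0% and 37.5% of the counts of the pair in the untreated day 6 and day 9 libraries, and 12.5% to 26.2% in the 4 treated groups. The split between the 2 copies thus differed between untreated and treated groups, where treatment and library kind cannot be told apart. Its part in the result was not tested. The sum of both was still lower with RA at day 6 (-2.12, adjusted p = 4.57e-05) and with CHIR99021 and BMP4 after RA (-1.78, adjusted p = 0.00382), and it was called lower with RA at day 9 (-0.88, adjusted p = 0.0484), where TDGF1 alone was not (-0.64, adjusted p = 0.171).

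**Figure D4:**
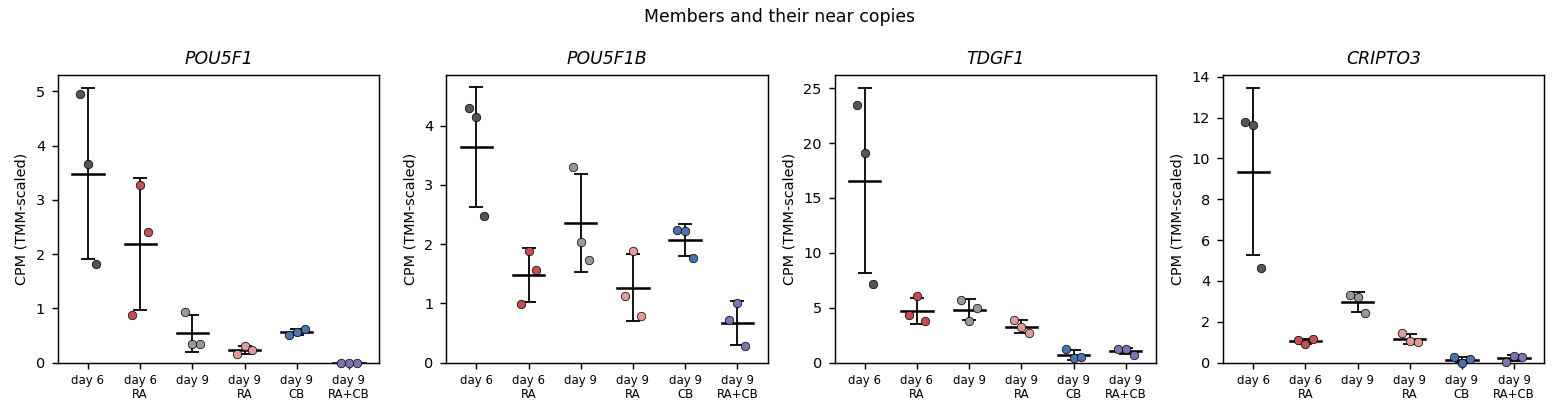
CPM of POU5F1 and TDGF1 beside their copies POU5F1B and CRIPTO3 in each library (points), with the mean (long bar) and SD (error bar) of 3 libraries; each panel has its own linear axis from 0. CB is CHIR99021 with BMP4. Heights are not comparable between genes, since CPM do not allow for length. POU5F1 is at 0 in the 3 libraries with RA, CHIR99021 and BMP4, and CRIPTO3 is highest in untreated day 6.

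L1TD1, TDGF1 and ZFP42 had the widest spread of responses to RA at day 6, and their RefSeq promoters are printed to show what letters they carry. The searched patterns were the nuclear receptor half-site AGGTCA (13.8% of all promoters), the octamer ATGCAAAT (1.77%), its core ATGCAAA, the SOX site ACAATG (given with NANOG), the TCF/LEF site CTTTGAT (2.62%) and the CCAAT box (34.6%; its letters are its name), on both strands; the octamer contains its core. Capitals mark matches, and ATTGG is CCAAT on the minus strand.
L1TD1 (chr1:62194599-62194898, plus strand): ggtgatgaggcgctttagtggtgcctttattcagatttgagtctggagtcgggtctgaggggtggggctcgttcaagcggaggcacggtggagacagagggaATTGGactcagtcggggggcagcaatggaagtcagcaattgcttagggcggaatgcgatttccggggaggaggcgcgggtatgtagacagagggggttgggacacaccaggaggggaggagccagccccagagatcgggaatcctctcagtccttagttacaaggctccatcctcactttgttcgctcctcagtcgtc
TDGF1 (chr3:46574285-46574584, plus strand): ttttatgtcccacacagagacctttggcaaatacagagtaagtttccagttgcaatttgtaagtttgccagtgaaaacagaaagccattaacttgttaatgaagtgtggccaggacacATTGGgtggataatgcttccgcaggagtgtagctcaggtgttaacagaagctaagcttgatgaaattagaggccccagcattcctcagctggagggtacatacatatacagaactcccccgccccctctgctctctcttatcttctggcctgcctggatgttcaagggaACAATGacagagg
ZFP42 (chr4:187995521-187995820, plus strand): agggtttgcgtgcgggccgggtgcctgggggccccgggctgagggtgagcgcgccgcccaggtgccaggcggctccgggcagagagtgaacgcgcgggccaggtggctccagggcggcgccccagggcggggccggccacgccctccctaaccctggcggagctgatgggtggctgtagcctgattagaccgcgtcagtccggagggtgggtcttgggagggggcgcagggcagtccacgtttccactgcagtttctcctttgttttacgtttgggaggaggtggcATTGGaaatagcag
L1TD1 had a CCAAT match 148 bases before the start and TDGF1 132 bases before it. ZFP42 had one 36 bases after the start, and TDGF1 had ACAATG 37 bases after it. AGGTCA, ATGCAAAT and CTTTGAT did not occur in any of the 6 windows, which says only that these letters are not in them.

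The Nodal pathway that TDGF1 serves was followed through 11 listed genes, of which 10 were tested. CHIR99021 with BMP4 left 1 higher and 5 lower without RA, against 42.8% of all genes called, and 3 higher and 6 lower after RA, against 64.4%. RA left 1 higher and 2 lower at day 6, against 48.7%, and 2 higher and 6 lower at day 9, against 65.1%. Without untreated day 6 replicates 1 and 3 the day 6 count was 1 higher and 1 lower. NODAL, the ligand, was at 24.7, 10.3 and 7.94 CPM in untreated day 6 and 6.59, 1.87 and 3.11 CPM in untreated day 9 (-1.63, adjusted p = 0.0144), and the libraries of untreated day 6 varied widely. This fall of NODAL was not called without untreated day 6 replicates 1 and 3 (-1.19, adjusted p = 0.158). With both treatments NODAL was at 1.92 ± 0.837 CPM, lower than with RA alone (6.52 ± 3.2 CPM, -1.68, adjusted p = 0.0213). CER1, a secreted Nodal inhibitor, was at 47.2 ± 13.9 CPM in untreated day 9 and 1.48 ± 0.468 CPM with CHIR99021 and BMP4 (-5.05, adjusted p = 6.98e-07). FOXH1, the DNA-binding partner of SMAD2 and SMAD3, was at 16.8 ± 2.29 CPM in untreated day 6 and 7.85 ± 1.06 CPM in untreated day 9 (-1.09, adjusted p = 3.28e-05). The type II receptor gene ACVR2A was higher with CHIR99021 and BMP4, both without RA (0.96, adjusted p = 1.38e-08) and after it (1.28, adjusted p = 1.15e-10).

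Of 28 other genes listed for pluripotency, 17 were tested. Between day 6 and day 9, 2 were higher and 9 lower without treatment, where 46.9% of all genes were called and 22.9% lower. After RA 2 were higher and 13 lower, where 58.8% of all genes were called and 30.3% lower. Without untreated day 6 replicates 1 and 3, 2 were higher and 7 lower between the untreated days. VRTN went from 19.1 ± 3.61 to 1.22 ± 0.315 CPM (-3.83, adjusted p = 2.54e-12). The zinc finger gene ZSCAN10 went from 16.8 ± 1.42 to 2.92 ± 1.06 CPM (-2.34, adjusted p = 8.59e-09). RA left 5 higher and 3 lower at day 6 (48.7% of all genes called; 2 higher and 2 lower without untreated day 6 replicates 1 and 3) and 2 higher and 8 lower at day 9 (65.1% of all genes called). CHIR99021 with BMP4 left 6 higher and 7 lower without RA (42.8% of all genes called), and 7 higher and 0 lower after RA (edgeR; 64.4% of all genes called). The named changes of VRTN, ZSCAN10, FOXH1, HMGA2, NR6A1, ARID3B and SALL1 that rest on untreated day 6 stayed called without its replicates 1 and 3.

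SOX2, the partner of POU5F1 that is also a foregut gene, was higher with both treatments than after RA alone, while POU5F1 was lower. That fall of POU5F1 was from 6 counts to 0 and was not called for the sum with its copies. SOX2 was at 155, 146 and 158 CPM with both treatments and at 26.6, 13.5 and 4.56 CPM after RA alone, a difference of 3.45, adjusted p = 4.21e-06. Without RA, SOX2 was lower with CHIR99021 and BMP4 (23.6 ± 6.28 CPM) than in untreated day 9 (74.7 ± 0.752 CPM, -1.69, adjusted p = 0.00181). DNMT3B, the de novo DNA methyltransferase of early embryonic cells, was higher with CHIR99021 and BMP4 both without RA (0.78, adjusted p = 5.18e-08) and after it (0.84, adjusted p = 8.20e-09). TERT, the catalytic subunit of telomerase, was at 1.03 ± 0.531 CPM after RA at day 9 and 20.4 ± 2.61 CPM with both treatments (4.37, adjusted p = 3.93e-11). USP44, a deubiquitinase of stem cells, and MYCN, a MYC family factor, also had their interactions of RA with CHIR99021 and BMP4 called, at 1.93, adjusted p = 1.11e-07 and 2.38, adjusted p = 7.76e-05. Of the 17 tested genes of the list of other pluripotency genes, 7 had this interaction called higher and 2 lower, near the 53.4% called over all genes.

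Germ cells share several of the 10 genes, and 5 of 8 listed germ cell markers were tested. The summed level of the 8 was 169 to 207 CPM in untreated day 6, 313 to 328 CPM after RA at day 6, 71.7 to 81.7 CPM in untreated day 9, 35.9 to 48.8 CPM after RA at day 9, 137 to 158 CPM with CHIR99021 and BMP4, and 256 to 280.5 CPM with both. KIT and PRDM1, which endoderm also expresses, made up most of these counts, at 87.8 ± 14.4 and 88.5 ± 8.71 CPM in untreated day 6. Of the genes that define later germ cells, DDX4 had 0 counts and DAZL 4 counts over the 3 untreated day 6 libraries. TFAP2C, a transcription factor of early germ cells and of other tissues, was at 0.954 ± 0.515 CPM after RA at day 9 and 11.4 ± 2.35 CPM with both treatments (3.62, adjusted p = 7.62e-10). RA left TFAP2C lower at day 9 (-3.13, adjusted p = 2.01e-08), and its interaction of RA with CHIR99021 and BMP4 was 4.73, adjusted p = 1.54e-09. NANOS3, an RNA-binding protein of germ cells, was at 1.28 ± 0.551 CPM in untreated day 9 and 3.72 ± 0.700 CPM after RA (1.37, adjusted p = 4.91e-04), and lower with both treatments than with RA alone (-1.17, adjusted p = 0.00153). TFAP2C thus moved like LIN28B, DPPA4 and SALL4 in these comparisons, and NANOS3 moved the other way; their part in the result was not tested. Mesendoderm markers (TBXT, MIXL1, EOMES and GSC) summed to 10.3 to 24.4 CPM in untreated day 6 libraries and 3.64 to 4.33 CPM after RA at day 6. Between these day 6 groups they moved in the same direction as TDGF1 and ZFP42. After RA at day 9 they summed to 10.4 to 14.6 CPM, which overlapped untreated day 6, and in the other day 9 groups to 1.36 to 3.05 CPM. Neither TDGF1 nor ZFP42 was called higher after RA at day 9 than after RA at day 6. The summed level of 4 neurectoderm markers was highest in untreated day 6, at 3.97 to 8.18 CPM. It was 0 to 0.409 CPM after RA at day 6 and 0.111 to 1.95 CPM in the 4 day 9 groups, and SOX1 of this list was at 0 in untreated day 6. The part of both lists in the results for TDGF1 and ZFP42 was not tested.

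The genes whose profile over the 18 libraries was most like that of each tested gene were found among 14268 genes by the root mean square (RMS) difference of centred log2 CPM. DPPA4 was nearest to PLEKHB1, with an RMS difference of 0.196 against an own spread of 1.11, and then FMO5 (0.304). PLEKHB1 was at 63.0 CPM in untreated day 6 and 14.9 CPM in untreated day 9. LIN28A was nearest to ALDH7A1P1 (0.168) and PHC1 (0.171), against an own spread of 0.515. LIN28B was nearest to FZD3, a Wnt receptor gene (0.180), and ATG4C (0.182), and SALL4 to B3GALT6 (0.196) and ITGA6 (0.197). L1TD1 was nearest to TTC6 (0.513) and PCYT1B (0.525), POU5F1 to LINC01356 (0.528) and PTPN13 (0.549), ZFP42 to PLXNA2 (0.538) and LFNG (0.551), and TDGF1 to GARIN1B (0.543) and LRRC2 (0.578). For these 4 genes no other profile was nearer than 0.513.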

How the data were processed

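Per the labels, Nucleospin columns gave the RNA and a TruSeq stranded mRNA kit the libraries. STAR 2.7.9 aligned the reads to GRCh38, per the submitters' processing notes; how reads were assigned to genes, with which annotation and strand setting, is not given in the sources used here. The authors deposited raw counts per gene and TPM values, 1 column per library, and all 18 libraries were used. 36 rows without a symbol held 0.00102% of counts and were left out. Counts were fitted in R 4.3.3 with edgeR 4.0.16 (quasi-likelihood, robust, trimmed mean of M-values, filterByExpr with minimum count 10, all 6 groups in 1 fit), with Benjamini-Hochberg adjustment over 15531 genes in each of 9 comparisons and 2 interactions. CPM were computed from counts. Where a group had 0 counts, the fold was taken against 3 counts over that group. This covers counting error of the empty group only, not the error of the other group. Within groups the chi-square of counts per gene was 2.15 to 10.6, above sampling noise. Alternatives were other scaling factors, no filter, DESeq2 1.42.0, limma 3.58.1 on log2(TPM + 0.1) and log2(TPM + 1), a replicate block, a library-kind covariate, subsets of libraries and sums with copies. In simulated data of 15123 genes for RA at day 6, 67, 67 and 66 genes were changed 1.5-, 2- and 4-fold. Of these, 65.7%, 82.1% and 97.0% were recovered, and 4.12% of the genes called were unchanged ones. The simulation changed far fewer genes than were called in the data and held no difference in library kind. Its rates therefore do not cover the comparisons of treated with untreated libraries. The named genes are the 10 members, their copies, up to 4 called genes per list and comparison with at least 5 CPM (largest change), 6 fixed genes (SOX2, DNMT3B, NODAL, NR6A1, HMGA2 and IGF2BP1) and the 2 genes nearest each tested member; TBXT, MIXL1, EOMES, GSC, DDX4, DAZL, NANOS3, SOX1 and the endoderm markers are named as markers. Repeating the tests of listed genes without untreated day 6 replicates 1 and 3 was added after the data had been seen. The 10 genes and the lists were chosen with earlier results of these data known. Results for 3 further genes of these lists are not reported here.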

Additional observations from a re-analysis of the deposited data

Results flagged for a closer look

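The response to RA differed between endoderm with and without CHIR99021 and BMP4 for 5 of the 8 tested genes, where 53.4% of all tested genes had this interaction called. The log2 interaction was 1.5 for LIN28B (adjusted p = 4.85e-08), 0.88 for LIN28A (adjusted p = 4.83e-07), 0.81 for DPPA4 (adjusted p = 0.00416), 0.65 for SALL4 (adjusted p = 6.49e-06) and -1.60 for ZFP42 (adjusted p = 0.0178). LIN28B, for example, was 2.57-fold lower after RA without CHIR99021 and BMP4, and 1.1-fold higher, a change not called, with them. The interaction includes the untreated day 9 libraries, so treatment and library kind cannot be told apart in it. Without untreated day 9 replicate 1 the value for DPPA4 was 0.56 and not called (adjusted p = 0.0525), and ZFP42 was not called without RA at day 9 replicate 2 (-1.32, adjusted p = 0.0838) or replicate 1 of both treatments (-1.56, adjusted p = 0.0508).

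Between day 9 and day 6 the response to RA differed for 5 of the 8, with 50.9% of all tested genes called. The log2 interaction was -1.86 for LIN28B (adjusted p = 2.71e-09), 1.4 for L1TD1 (adjusted p = 1.38e-04), 2.14 for ZFP42 (adjusted p = 7.37e-04), -0.74 for DPPA4 (adjusted p = 0.00549) and -0.46 for LIN28A (adjusted p = 0.00127). LIN28B was higher with RA at day 6 and lower with RA at day 9, and ZFP42 was lower at day 6 with no call at day 9. Untreated day 6 replicates 1 and 3 touch this interaction: without them LIN28A was at -0.31 (adjusted p = 0.0569) and DPPA4 at -0.57 (adjusted p = 0.0758), neither called. DPPA4 was also not called without untreated day 9 replicate 1 (-0.49, adjusted p = 0.0752).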

How the results depend on the processing

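Of 67 calls over the 8 genes and 11 comparisons, 33 stayed called in the same direction under all 29 alternatives that could be fitted for them and 53 under all but the library-kind covariate. That covariate, the share of the set's counts on its 18 genes higher in treated libraries, is nearly collinear with treatment and takes its slope from the 3 untreated day 6 libraries. With it, 0 of the 8 genes were called in edgeR for RA at day 6, RA at day 9, CHIR99021 with BMP4 without RA, untreated day 6 to CHIR99021 with BMP4, and the interaction of RA with CHIR99021 and BMP4, and 86, 61, 13, 47 and 57 genes of the whole table were. Its log2 values changed sign, without a call, for RA at day 6 (TDGF1 5.73, SALL4 0.70, LIN28A 0.93, ZFP42 1.94), RA at day 9 (DPPA4 0.88, SALL4 0.82, LIN28A 0.62), CHIR99021 with BMP4 without RA (TDGF1 5.31, LIN28A 1.10), untreated day 6 to CHIR99021 with BMP4 (POU5F1 2.73, TDGF1 3.01, L1TD1 1.48, LIN28A 0.56, ZFP42 1.17) and the interaction (DPPA4 -0.78, SALL4 -0.59, LIN28A -0.85). RA at day 9 called 3 of the 8 genes with limma on either TPM scale, and RA before CHIR99021 and BMP4 called 3 with log2(TPM + 1). Leaving out 1 library at a time, the number of genes called ranged from 5 to 6 for RA at day 9, 6 to 8 for CHIR99021 with BMP4 after RA, 4 to 5 for RA before CHIR99021 and BMP4, 7 to 8 from untreated day 6 to CHIR99021 with BMP4, 4 to 7 for the interaction with CHIR99021 and BMP4, 4 to 6 for that with day, and did not change for the other 5. For CHIR99021 with BMP4 without RA the number stayed at 4 but the genes did not. L1TD1 and LIN28B each lost their call in 1 setting, and SALL4 and ZFP42 each gained a call in 1. Untreated day 9 against day 6 called all 8 genes without untreated day 6 replicates 1 and 3. A replicate block changed 1 of 88 results, TDGF1 in the interaction of RA with day (1.17, adjusted p = 0.0194), but same-numbered libraries did not deviate together (r from -0.11 to 0.23 over 45 pairs, 4 above 0.1), so the numbers do not pair the samples. LIN28B with CHIR99021 and BMP4 without RA was not called without replicate 1 of that group (-0.24, adjusted p = 0.0683) or on the TPM scale. The median of all genes moved on the TPM scale by 0.33 for RA at day 9, 0.24 for CHIR99021 with BMP4 without RA, 0.20 for RA at day 6 and -0.18 for untreated day 9 against day 6. Depth limits POU5F1, NANOG and PRDM14 at day 9, with at most 23 counts in a library.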
